A study of Mus musculus with 17 samples.

Results

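The genes described here are 10 genes of the circadian clock: Arntl (also called Bmal1), Clock, Per1, Per2, Per3, Cry1, Cry2, Nr1d1, Nr1d2 and Dbp. They were chosen by name, and a probe was assigned to a gene when the RefSeq transcript in the array's annotation belonged to that gene. All 10 of 10 were on the array, with 11 of its 55681 probes, since Dbp had 2. Of these, 9 were bright enough to be among the 21405 genes tested. Each of the 17 arrays held in its Cy5 channel the RNA of the forestomach of 1 male MutaTMMouse animal aged 24 to 26 weeks, and in its Cy3 channel Universal Mouse Reference RNA from 11 mouse cell lines, with no dye swap. The 4 groups were control animals gavaged with olive oil alone (replicates 1 to 5) and animals gavaged with benzo(a)pyrene (BaP) in olive oil at 25 mg/kg (replicates 6 to 9), 50 mg/kg (replicates 12 to 15) and 75 mg/kg (replicates 17 to 20), every day for 28 days. Olive oil and daily gavage were thus common to all groups. MutaTMMouse is a transgenic strain used for mutation assays, and RNA came from random sections of the forestomach. Animals were kept under 12 hours of light and 12 of dark and sampled 72 hours after their final gavage. The labels do not give the hour of day at which each animal was sampled, so the clock genes are given array by array. All values are log2 ratios of Cy5 over Cy3, that is, a gene's level in the forestomach relative to the reference, and a difference of 1 is a doubling. Ratios of different genes are not compared as levels.

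The clock is a feedback loop of transcription factors. ARNTL and CLOCK bind together to E-box sequences and switch on the Per, Cry and Nr1d genes and Dbp; the PER and CRY proteins then repress ARNTL and CLOCK, while NR1D1 and NR1D2 (REV-ERB alpha and beta) bind RRE sequences and repress Arntl itself. DBP, TEF and HLF activate genes through D-box sequences, at which NFIL3 competes with them. In peripheral mouse tissues under a light cycle, Dbp and Nr1d1 transcripts are known to swing widely over the day, with Arntl close to opposite phase. BaP is a polycyclic aromatic hydrocarbon, and the rodent forestomach has a lining of stratified squamous epithelium.

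In Cy5, 41.2% to 52.0% of an array's probes exceeded background clearly, and the lowest correlation between any pair of arrays was 0.84. The 6 squamous epithelium markers (Krt5, Krt14, Krt13, Krt4, Trp63 and Lor) were all measured, and their mean log2 ratio was 4.20 to 4.92 on every array, so transcripts of this epithelium were high in every animal. The 5 smooth muscle markers averaged 4.33 to 5.56, so muscle of the wall was in the samples too. The glandular stomach list reached 4.83 in replicate 7 and 1.74 in replicate 9 at 25 mg/kg, and 2.47 in replicate 20 and 1.62 in replicate 17 at 75 mg/kg. It lay between 0.49 and 0.92 at 50 mg/kg and between 0.33 and 0.78 in control animals. Its lowest value, 0.20, was in replicate 19 at 75 mg/kg. Such tissue mixtures mean that fewer cells of a type and less RNA per cell cannot be told apart. The arrays lay on 3 slides of 6, 7 and 4 arrays, each of which held every group. Values within slides are given in this order. At 75 mg/kg the only animal was replicate 17 on the slide with 6 arrays and replicate 20 on that with 4. On the slide with 4 arrays the only control animal was replicate 5.

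None of the 9 clock genes tested passed the threshold at any dose. With limma's adjusted p under 0.05 over all genes, 0 of 9 were called at 25 mg/kg, where 0.014% of all genes were called, 0 of 9 at 50 mg/kg, where 0.0467% were, and 0 of 9 at 75 mg/kg, where 1.1% were. On a straight line of dose 0 of 9 were called, against 1.35% of all genes. At an unadjusted p under 0.05, limma gave 0 of 9 at 25 mg/kg (3.26% of all genes), 1 at 50 mg/kg (6.8%), 0 at 75 mg/kg (10.1%) and 1 on the line of dose (11.4%), and both times the 1 gene was Dbp. No clock gene had dosed animals all above or all below the control animals: the count was 0 of 9 at 25, 50 and 75 mg/kg, where 0.986%, 2.21% and 3.3% of all genes separated in this way. The median difference of the 9 genes from control was 0.15 at 25 mg/kg, 0.21 at 50 mg/kg and 0.20 at 75 mg/kg on the log2 scale, against 0.01, -0.01 and -0.01 over all genes, and 7 of 9 differences were positive at each dose. Without control replicate 1 the median of the 9 was 0.04, 0.14 and 0.10, and with each array centred on its median in place of loess it was 0.27, 0.17 and 0.47. The 3 comparisons share the 5 control animals. Dbp, Nr1d1, Nr1d2 and Per1 spread widely between animals of 1 group, and values are given by animal.

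**Figure D1:**
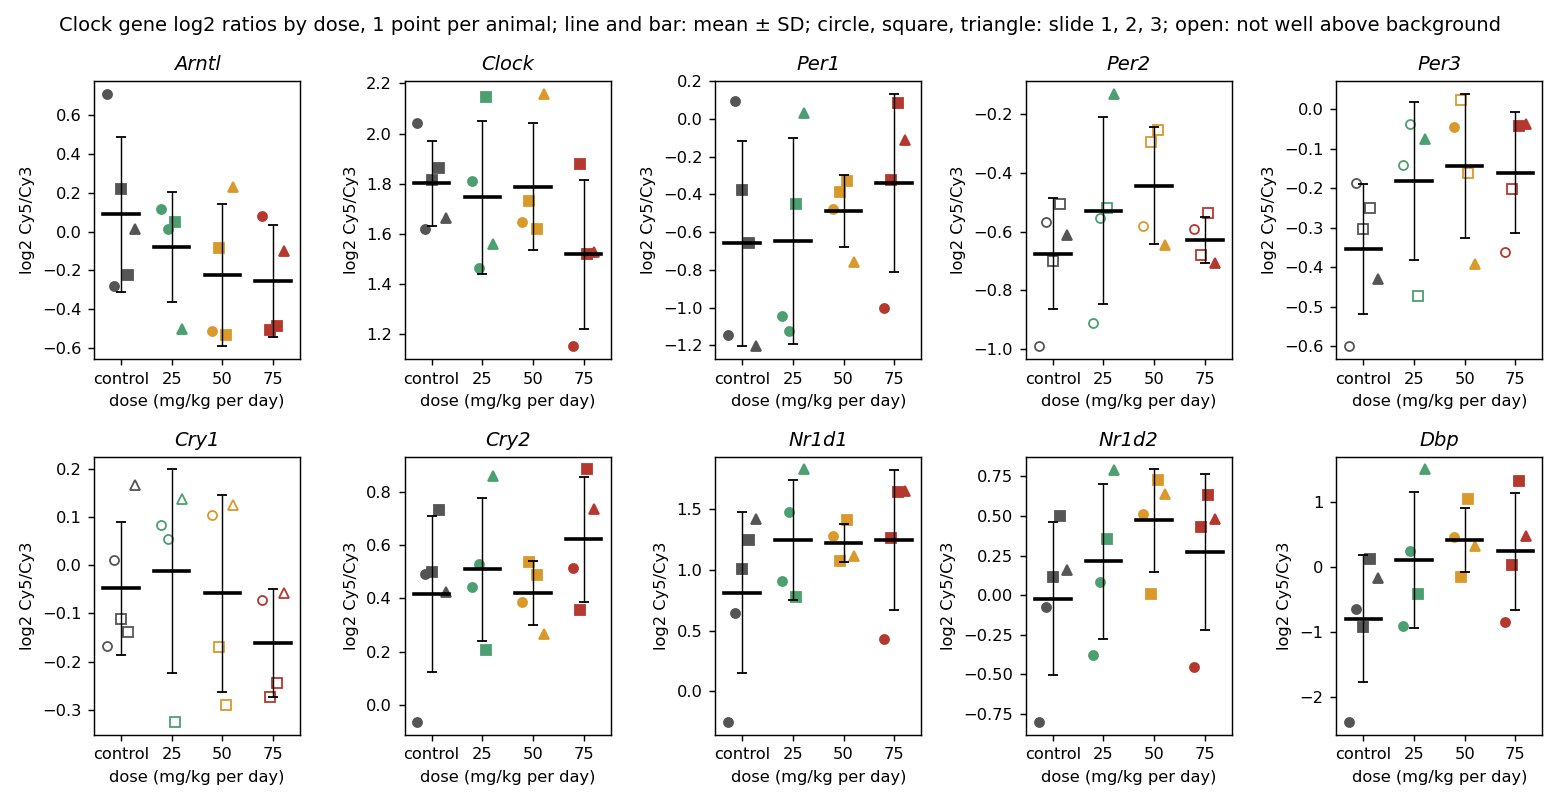
Log2 ratio of Cy5 over Cy3 (vertical axes, a separate scale for each gene) of 10 clock genes by daily dose of BaP (horizontal axes), with 1 point per animal, the group mean and a bar of ± SD (n = 5 control animals, n = 4 at each dose). The shape gives the slide, and open points were not well above background. In every panel the dosed animals overlap the control animals, and control replicate 1 is the lowest point for Dbp at -2.39, Nr1d1 at -0.25 and Nr1d2 at -0.80 and the highest for Arntl at 0.71.

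The positive arm had 2 members, Arntl and Clock, each with 1 probe that was well above background on all 17 arrays. Arntl encodes the partner of CLOCK and is a member of the loop that NR1D proteins repress. Its log2 ratio was 0.71, -0.28, 0.22, -0.22 and 0.01 in control replicates 1 to 5. It was 0.12, 0.01, 0.05 and -0.50 at 25 mg/kg, -0.51, -0.09, -0.53 and 0.23 at 50 mg/kg, and 0.08, -0.51, -0.49 and -0.10 at 75 mg/kg. Control replicate 1 was the highest of all arrays and replicate 14 at 50 mg/kg the lowest, and every dose group overlapped the control group. At 75 mg/kg the mean was -0.25 ± 0.29 (SD, n = 4) against 0.09 ± 0.40 in control animals (SD, n = 5), a log2 difference of -0.34 ± 0.21 (SE) with a limma adjusted p of 0.641. The differences at 25 and 50 mg/kg were -0.17 and -0.31, with larger limma adjusted p values. The difference at 75 mg/kg was -0.19 without control replicate 1 and -0.09 under median centring, and that at 25 mg/kg was -0.01 under either. On the 3 slides taken singly, the difference at 75 mg/kg was -0.14, -0.50 and -0.11. The second start of Arntl held the RRE core, at +31, and the site is shown because it is the kind of sequence through which NR1D proteins act; its capitals mark the motif, and it runs from 20 to 49 bases after the start on the plus strand (GRCm38.p6, chr7:113207530-113207559, sequence from RefSeq).
Arntl RRE core: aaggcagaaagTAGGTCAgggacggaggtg

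Clock encodes the DNA-binding partner of ARNTL and is known to cycle little in most tissues. It lay within 1.01 log2 units over all arrays, between 1.15 in replicate 17 at 75 mg/kg and 2.16 in replicate 15 at 50 mg/kg. Its mean was 1.52 ± 0.30 at 75 mg/kg (SD, n = 4) and 1.80 ± 0.17 in control animals (SD, n = 5). The log2 difference was -0.28 ± 0.16 (SE), with a limma adjusted p of 0.605 and within-slide values of -0.68, -0.14 and -0.14, and those at 25 and 50 mg/kg were -0.06 and -0.01. The difference at 75 mg/kg was 0.02 under median centring, and -0.16 without replicate 17.

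The negative arm had 5 members, the 3 Per genes and the 2 Cry genes, of which Per1 and Cry2 were well above background on all 17 arrays. Per1, which also responds to glucocorticoid and other acute signals, was -1.15, 0.10, -0.38, -0.66 and -1.21 in control replicates 1 to 5. It was -1.04, -1.13, -0.45 and 0.03 at 25 mg/kg, -0.48, -0.39, -0.33 and -0.76 at 50 mg/kg, and -1.0, -0.33, 0.08 and -0.11 at 75 mg/kg. The control animals alone spanned 1.30 log2 units, as wide as all 17 arrays, and the 4 animals at 50 mg/kg lay inside that span. The difference from control at 75 mg/kg was 0.32 ± 0.28 (SE; limma adjusted p = 0.77). It was 0.17 at 50 mg/kg and 0.01 at 25 mg/kg. At 75 mg/kg it was 0.18 without replicate 19, 0.54 without replicate 17 and 0.66 under median centring. Within slides the difference at 75 mg/kg was -0.48, 0.40 and 1.09, so it had no common sign.

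Cry2 had log2 ratios of -0.06, 0.49, 0.50, 0.73 and 0.42 in control replicates 1 to 5. It had 0.44, 0.53, 0.21 and 0.86 at 25 mg/kg, 0.39, 0.54, 0.49 and 0.27 at 50 mg/kg, and 0.51, 0.35, 0.88 and 0.73 at 75 mg/kg. Control replicate 1 was again the lowest, and the other 4 control animals averaged 0.54 ± 0.13 (SD). The difference at 75 mg/kg was 0.20 ± 0.16 (SE), with a limma adjusted p of 0.729 and within-slide values of 0.30, 0.00 and 0.31, and those at 25 and 50 mg/kg were 0.09 and 0.00. At 75 mg/kg it was 0.08 without control replicate 1 and 0.53 under median centring.

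Per2 and Per3 were dim. Per2 was well above background on 4 of 17 arrays, 1 in each group and all on the slide with 4 arrays, and Per3 on those 4 and on 1 array of each other slide. Their log2 ratios ran from -0.99 to -0.13 for Per2 and from -0.60 to 0.02 for Per3, with control replicate 1 lowest for both. At 75 mg/kg the differences were 0.05 ± 0.14 for Per2 and 0.19 ± 0.12 for Per3 (SE), with limma adjusted p of 0.946 and 0.638. The scanner's processed signals replace both the background correction and loess. From them the same differences were 0.68 and 0.88, with limma adjusted p of 0.817 and 0.442. With loess kept and no background correction they were 0.11 and 0.22. Their size thus depended on the processing, and which step mattered was not tested. So near background, the width of these ranges was not interpreted. Cry1 was well above background in Cy5 on 0 of 17 arrays and was not tested; its ratios, -0.33 to 0.17, are not read here.

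The promoters of the negative arm carried most of the motifs found among the members, and those of Per1 and Per3 are shown for that reason, from 250 bases before the start to the start (GRCm38.p6, sequences from RefSeq, read 5′ to 3′ along the gene). The E-box CACGTG of Per1 begins at -166 from the start, on chr11:69098699-69098948, plus strand. The 2 D-boxes of Per3, matching TTANGTAA, begin at -205 and -158, on chr4:151044666-151044915, minus strand. Capitals mark the motifs.
Per1: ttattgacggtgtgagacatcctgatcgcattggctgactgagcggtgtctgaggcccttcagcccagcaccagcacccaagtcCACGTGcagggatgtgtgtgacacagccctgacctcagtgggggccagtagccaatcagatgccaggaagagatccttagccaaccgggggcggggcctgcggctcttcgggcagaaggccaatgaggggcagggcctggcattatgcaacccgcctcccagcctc
Per3: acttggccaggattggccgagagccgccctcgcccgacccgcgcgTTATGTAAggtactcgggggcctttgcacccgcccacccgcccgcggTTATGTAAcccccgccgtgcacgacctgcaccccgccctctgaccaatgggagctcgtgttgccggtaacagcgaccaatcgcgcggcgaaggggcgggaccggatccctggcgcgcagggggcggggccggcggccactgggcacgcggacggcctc

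Windows of 300 bases, 250 before and 50 after a start, were listed for 9 of the 10 members, 13 windows in all; Per2 had none in the table used. Both strands were searched for the E-box CACGTG, the D-box TTANGTAA and the RRE core TAGGTCA. The E-box was found in 2 of the 13 windows (Per1, and Cry1 at -60), the D-box in 1 (Per3) and the RRE core in 1 (Arntl). Among all 32851 windows listed, 7.15% held the E-box, 2.32% the D-box and 2.61% the RRE core. A match is a run of letters, not a shown site, and the lack of one says only that these letters are not in these windows.

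The nuclear receptors Nr1d1 and Nr1d2, which repress Arntl, were well above background on all 17 arrays. Nr1d1 was -0.25, 0.65, 1.01, 1.25 and 1.42 in control replicates 1 to 5. It was 0.91, 1.48, 0.77 and 1.83 at 25 mg/kg, 1.28, 1.08, 1.42 and 1.11 at 50 mg/kg, and 0.43, 1.26, 1.65 and 1.65 at 75 mg/kg. Over all arrays this is a span of 2.08 log2 units, or 4.24-fold, between control replicate 1 and replicate 9 at 25 mg/kg. The 3 dose means were 1.25 ± 0.49 at 25 mg/kg, 1.22 ± 0.16 at 50 mg/kg and 1.25 ± 0.57 at 75 mg/kg (SD, n = 4 each), against 0.81 ± 0.66 in control animals (SD, n = 5). The differences of 0.43, 0.41 and 0.43 had limma adjusted p of 0.999, 0.851 and 0.708. The differences were 0.17, 0.14 and 0.17 without control replicate 1.

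Nr1d2 was -0.80, -0.08, 0.11, 0.50 and 0.16 in control replicates 1 to 5. It was -0.38, 0.08, 0.35 and 0.79 at 25 mg/kg, 0.51, 0.01, 0.73 and 0.64 at 50 mg/kg, and -0.46, 0.43, 0.63 and 0.48 at 75 mg/kg. The lowest and the highest array were the same as for Nr1d1, and the lowest animals at 25 and 75 mg/kg were replicates 6 and 17. The differences from control were 0.24 at 25 mg/kg, 0.49 at 50 mg/kg and 0.29 at 75 mg/kg, with limma adjusted p of 0.999, 0.793 and 0.787. They were 0.04, 0.30 and 0.10 without control replicate 1. Within slides the difference at 75 mg/kg was -0.02, 0.23 and 0.32 for Nr1d2 and 0.23, 0.33 and 0.24 for Nr1d1. On the slide with 6 arrays it rests on replicate 17, which lay between control replicates 1 and 2 for both genes.

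Dbp, a transcription factor that acts through D-boxes and a well-known output of the clock, had the widest range of the members. Its brighter probe gave -2.39, -0.65, -0.93, 0.12 and -0.17 in control replicates 1 to 5. It gave -0.91, 0.25, -0.42 and 1.50 at 25 mg/kg, 0.46, -0.16, 1.04 and 0.32 at 50 mg/kg, and -0.85, 0.02, 1.32 and 0.47 at 75 mg/kg. Control replicate 1 and replicate 9 at 25 mg/kg lay 3.89 log2 units apart, a 14.9-fold range, and all 3 dose groups overlapped the control group. The second Dbp probe, in the same transcript, spanned 4.21 log2 units, or 18.5-fold, between the same animals, and the deviations of the 2 probes from their group means correlated at r = 0.985. The 250 bases before the Dbp start are shown because Dbp carried the widest range; none of the 3 motifs was found in its window (GRCm38.p6, chr7:45704997-45705246, plus strand, from RefSeq).
Dbp: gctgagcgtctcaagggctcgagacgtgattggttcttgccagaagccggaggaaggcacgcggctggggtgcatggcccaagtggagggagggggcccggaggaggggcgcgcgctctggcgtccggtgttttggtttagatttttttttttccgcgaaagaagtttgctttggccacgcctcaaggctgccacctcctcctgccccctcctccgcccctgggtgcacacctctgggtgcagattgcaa

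The dose means of Dbp were 0.10 ± 1.04 at 25 mg/kg, 0.42 ± 0.49 at 50 mg/kg and 0.24 ± 0.91 at 75 mg/kg (SD, n = 4 each), against -0.80 ± 0.98 in control animals (SD, n = 5). The log2 differences were 0.91 ± 0.53, 1.22 ± 0.53 and 1.04 ± 0.53 (SE), or 1.88-fold, 2.33-fold and 2.06-fold. Their limma adjusted p values were 0.999, 0.722 and 0.537, and the 95% interval at 75 mg/kg ran from -0.08 to 2.16. The slope was 0.36 ± 0.17 (SE) per 25 mg/kg, with a limma adjusted p of 0.422. Unadjusted, limma's p for this slope was 0.0446, and it was 0.0611 for the second probe, whose slope was 0.38. The second probe gave differences of 1.04, 1.35 and 1.08, with limma adjusted p of 1, 0.763 and 0.604. Within slides the difference at 75 mg/kg was 0.67, 1.07 and 0.64. The first of these rests on replicate 17 alone. At -0.85 it lay above control replicate 1 at -2.39 but below control replicate 2 at -0.65. Control replicate 1 decided much of this size: without it the control mean was -0.41 ± 0.47 (SD) and the differences 0.51, 0.82 and 0.64. The difference at 25 mg/kg was 0.44 without replicate 9, and that at 75 mg/kg was 0.68 without replicate 19. The sampling hour was not in the labels, and its part in the difference was not tested.

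**Figure D2:**
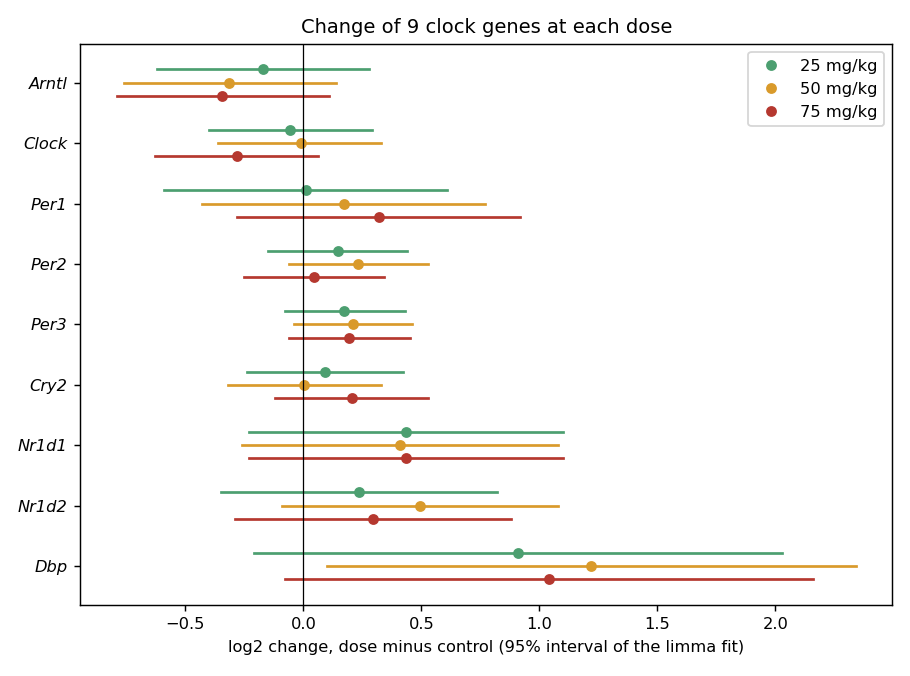
Log2 difference from control (horizontal axis) of the 9 clock genes tested at 25, 50 and 75 mg/kg, with the 95% interval of the limma fit. Dbp has the largest differences, 0.91, 1.22 and 1.04, and the widest intervals, and Arntl and Clock lie below 0 at each dose.

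The spread between animals of 1 group, measured as the residual SD of the log2 ratio, lay above percentile 85 of all genes for 5 of the 9 members. Dbp had 0.89, above 99% of all genes tested, whose median was 0.20. Nr1d1 had 0.52 (percentile 95.4), Per1 0.47 (93.5), Nr1d2 0.46 (93.0) and Arntl 0.34 (85.3). Clock at 0.26, Cry2 at 0.24 and the dim genes Per2 at 0.21 and Per3 at 0.18 were between percentiles 38.2 and 70.8. Without control replicate 1, and over the 12 dosed animals alone, 4 members lay above percentile 85, since Arntl was then at 79.4 and 84.5. Without that control animal, Dbp was at percentile 98.6, Nr1d1 at 91.1, Per1 at 93.1, Nr1d2 at 89.9 and Cry2 at 51.3. These percentiles are a description with no test, and genes were not matched for brightness. Some tissue markers outside the clock lay as high, such as Col1a1 at 94.1, Dcn at 93.7 and Adipoq at 99.97. Others, such as Krt5 at 54.0 and Pdgfra at 64.8, did not.

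Part of the spread was shared among the genes. After removing the group means, each array's deviation was correlated between Arntl or Dbp and each of the other members, 15 pairs in all, since Cry1 was not measured. The p values were adjusted over all 15, and the 4 pairs with Per2 or Per3 are not read, since those genes were near background on most arrays. By permutation of arrays within groups, 8 of the other 11 pairs passed an adjusted p of 0.05 by Pearson's r and 5 by Spearman's rho. Many genes outside the clock had r as far from 0. Among the 13875 other genes with a symbol, Nr1d1, Nr1d2 and Cry2 ranked 2, 3 and 21 from the highest r with Dbp. From the lowest r with Arntl, Dbp ranked 15, Nr1d2 63, Nr1d1 80, Per1 121 and Cry2 124. Arrays high in Dbp were high in the 2 nuclear receptors and low in Arntl. Dbp correlated with Nr1d1 at r = 0.91 (adjusted permutation p = 0.0006; rho = 0.88, adjusted p = 0.00142) and with Nr1d2 at r = 0.90 (adjusted permutation p = 0.000825; rho = 0.87, adjusted p = 0.00142). Without control replicate 1 and replicate 9 at 25 mg/kg, the arrays farthest from the median of Dbp, these were 0.86 and 0.84. On the slide with 6 arrays they were 0.92 and 0.97, and on that with 7 arrays 0.87 and 0.77; the slide with 4 arrays was too small for a value.

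**Figure D3:**
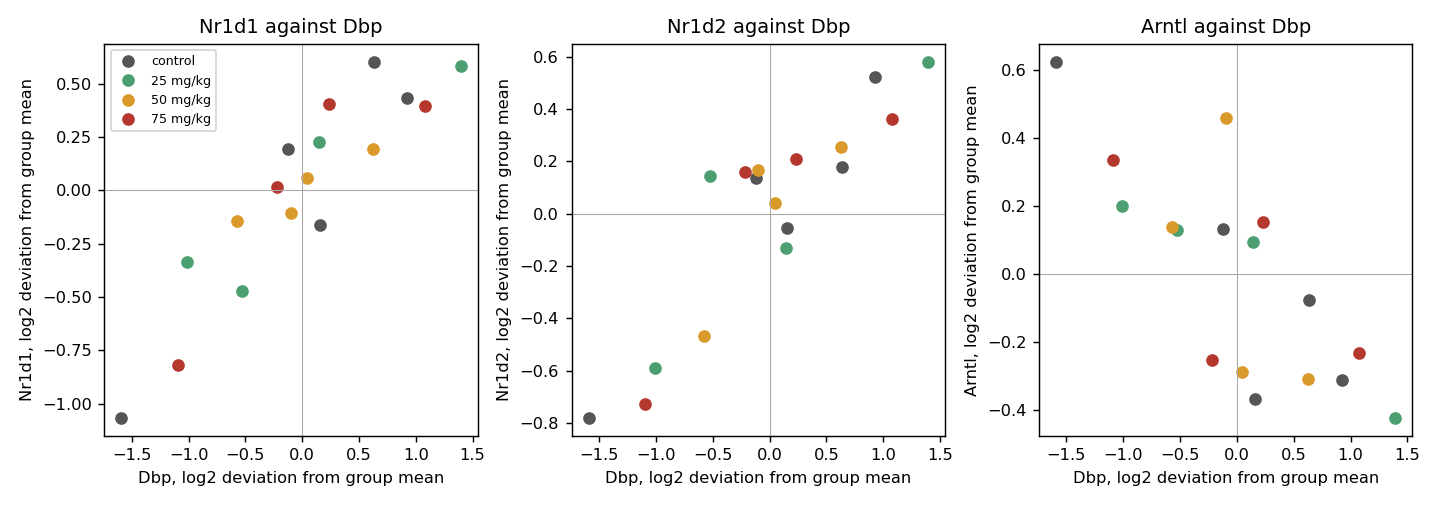
Deviation of each array from its group mean, in log2 units, for Nr1d1, Nr1d2 and Arntl (vertical axes) against Dbp (horizontal axes); colour gives the group and each point is 1 animal. Nr1d1 and Nr1d2 follow Dbp at r = 0.91 and 0.90 and Arntl runs opposite at r = -0.78 over 17 arrays, with control replicate 1 at the far left of each panel.

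Arntl ran opposite to Dbp, at r = -0.78 (adjusted permutation p = 0.00725; rho = -0.73, adjusted p = 0.0155). It was -0.64 without the same 2 arrays, and -0.89 and -0.79 on the slides with 6 and 7 arrays. Arntl also ran opposite to the 2 receptors that repress it, at r = -0.67 with Nr1d1 (adjusted permutation p = 0.0156; rho = -0.53, adjusted p = 0.0736) and -0.68 with Nr1d2 (adjusted permutation p = 0.0156; rho = -0.60, adjusted p = 0.0487). Without the 2 arrays farthest from the Arntl median, again control replicate 1 and replicate 9 at 25 mg/kg, these were -0.46 and -0.50. On the slides with 6 and 7 arrays they were -0.77 and -0.67 for Nr1d1, and -0.91 and -0.69 for Nr1d2. With its partner Clock, Arntl gave r = 0.32 (adjusted permutation p = 0.242; rho = 0.38, adjusted p = 0.174).

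Arntl was negative against Per1 and Cry2, the members of the negative arm that were well above background on every array. Pearson's r was -0.64 with Per1 (adjusted permutation p = 0.02; rho = -0.53, adjusted p = 0.0736) and -0.63 with Cry2 (adjusted permutation p = 0.0242; rho = -0.53, adjusted p = 0.0736). Without the 2 farthest arrays, r was -0.52 and -0.38. On the slide with 6 arrays it was -0.82 with either gene, and on the slide with 7 arrays 0.22 with Per1 and -0.31 with Cry2, so the pair with Per1 had opposite signs on the 2 slides.

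Dbp was positive against the same genes. Pearson's r was 0.80 with Cry2 (adjusted permutation p = 0.0112; rho = 0.72, adjusted p = 0.027) and 0.55 with Per1 (adjusted permutation p = 0.0759; rho = 0.46, adjusted p = 0.157), so only the pair with Cry2 passed. Dbp and Clock gave r = -0.28 (adjusted permutation p = 0.341; rho = -0.33, adjusted p = 0.266). Without the 2 farthest arrays r was 0.64 with Cry2, 0.36 with Per1 and -0.08 with Clock. On the slides with 6 and 7 arrays it was 0.83 and 0.71 with Cry2, 0.62 and 0.25 with Per1, and -0.57 and -0.47 with Clock.

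Much of this count rested on the arrays at the ends. Without control replicate 1, 3 pairs passed, and without replicate 9 at 25 mg/kg also 3; both times these were Dbp with Nr1d1, Dbp with Nr1d2 and Arntl with Dbp. The normalization mattered for Arntl. With median centring of each array in place of loess, Arntl with Dbp was at r = -0.27 (adjusted permutation p = 0.459). Dbp with Nr1d1 was then at 0.91 (adjusted permutation p = 0.00157) and with Nr1d2 at 0.90 (adjusted permutation p = 0.0009). Arntl with Dbp was at r = -0.77 from the Cy5 channel alone and at -0.81 with the processed signals. Under median centring Arntl with Clock was at 0.74 (adjusted permutation p = 0.0113). The squamous epithelium markers then lay between 0.27 and 0.86 with Arntl, against -0.20 to 0.37 with loess. The smooth muscle markers lay between 0.57 and 0.72, against 0.08 to 0.31. The glandular stomach markers did not rise, at -0.20 to 0.08 against 0.05 to 0.25. The marker values have no test, and the rise with Arntl was not particular to Clock.

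**Figure D4:**
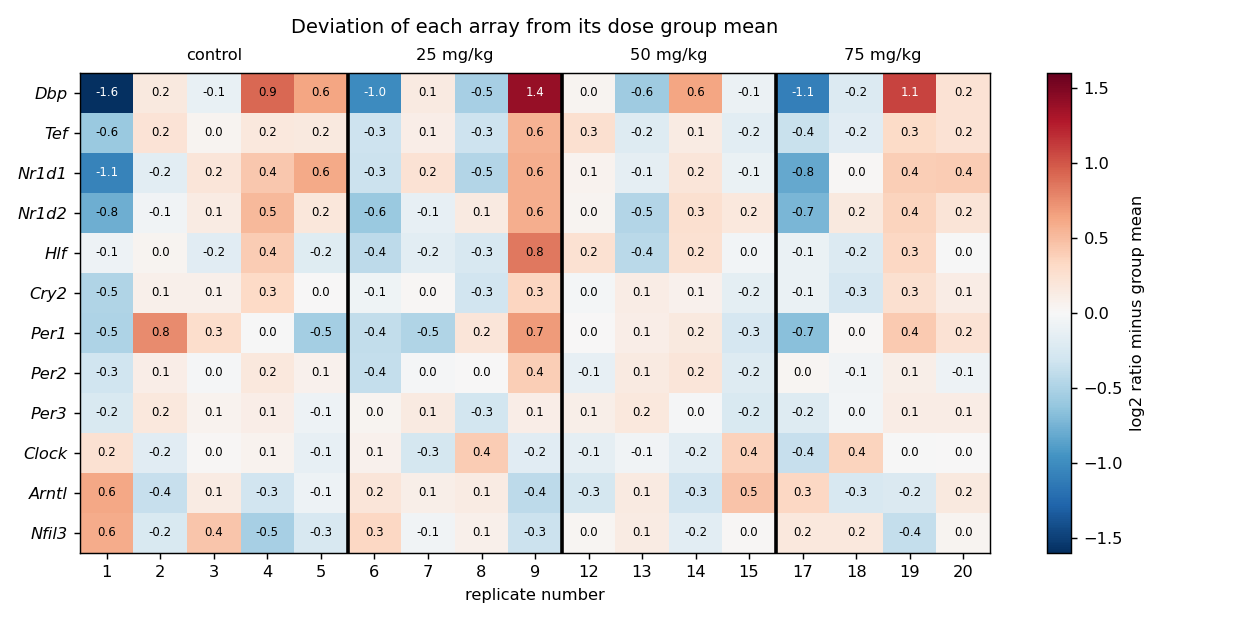
Deviation of each array (columns, by replicate number within the 4 groups) from its group mean for 12 genes (rows), in log2 units, red above and blue below the group mean. Control replicate 1 and replicates 6 and 17 are blue for Dbp, Tef, Nr1d1 and Nr1d2 and red for Arntl and Nfil3, and replicates 9 and 19 show the opposite. Per2 and Per3 were near background on most arrays.

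The genes most like Dbp were named by rank. Among the 13875 other genes with a symbol, ranked by Pearson's r of their deviations with Dbp over the 17 arrays, the 5 highest were Tef at 0.92, Nr1d1 at 0.91, Nr1d2 at 0.90, Antxr1 at 0.88 and Tbc1d5 at 0.87. The 5 lowest were Stard4 at -0.94, Mgat2 at -0.89, Ddx49 at -0.88, Nfil3 at -0.87 and Rpl41 at -0.87. The values are a description with no test, and the points share arrays and normalization. Tef, Nr1d1 and Nr1d2 were at 0.84 to 0.91 under median centring and at 0.86 to 0.89 without control replicate 1. Under median centring Nfil3 was at -0.33, Stard4 at -0.24 and Rpl41 at 0.12. From the Cy5 channel alone Nfil3 was at -0.89, Stard4 at -0.24 and Rpl41 at -0.65, and Tef, Nr1d1 and Nr1d2 were at 0.92, 0.90 and 0.79. With the processed signals Nfil3 was at -0.85, Stard4 at -0.87 and Rpl41 at -0.76.

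Tef, which encodes another D-box activator, was -0.36, 0.45, 0.28, 0.40 and 0.39 in control replicates 1 to 5. It was 0.18, 0.62, 0.18 and 1.07 at 25 mg/kg, 0.85, 0.38, 0.72 and 0.42 at 50 mg/kg, and 0.21, 0.39, 0.87 and 0.80 at 75 mg/kg. As with Dbp, control replicate 1 was lowest and replicate 9 at 25 mg/kg highest, and each dose group overlapped the control group. Hlf, a further D-box activator, had r = 0.73 with Dbp, and its highest ratio, 2.04, was also in replicate 9. Nfil3 had its highest ratio, -0.88, in control replicate 1, where Dbp was lowest. The E-box of Tef begins at -127 from its start and the RRE core of Nfil3, read on the opposite strand, at -12; both are shown because the 2 genes stood at opposite ends of the ranking (GRCm38.p6, chr15:81802523-81802582, plus strand, and chr13:52981040-52981099, minus strand, from RefSeq, capitals marking the motif).
Tef: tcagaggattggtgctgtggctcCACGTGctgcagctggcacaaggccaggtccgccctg
Nfil3: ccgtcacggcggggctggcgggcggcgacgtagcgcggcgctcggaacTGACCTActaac

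For Arntl the 5 highest were Uroc1 at 0.84, Fkbpl at 0.83, Grb7 at 0.83, Orm2 at 0.82 and Aldh1l1 at 0.82, and the 5 lowest Cep250 at -0.84, Dennd6b at -0.82, Igflr1 at -0.82, Tbc1d5 at -0.81 and Exd1 at -0.81. Under median centring the 5 highest were between 0.64 and 0.91, while Cep250 was at 0.00 and Tbc1d5 at 0.35. Of the clock pathway, Nfil3 was at 0.74 with Arntl and Tef at -0.78.

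**Figure D5:**
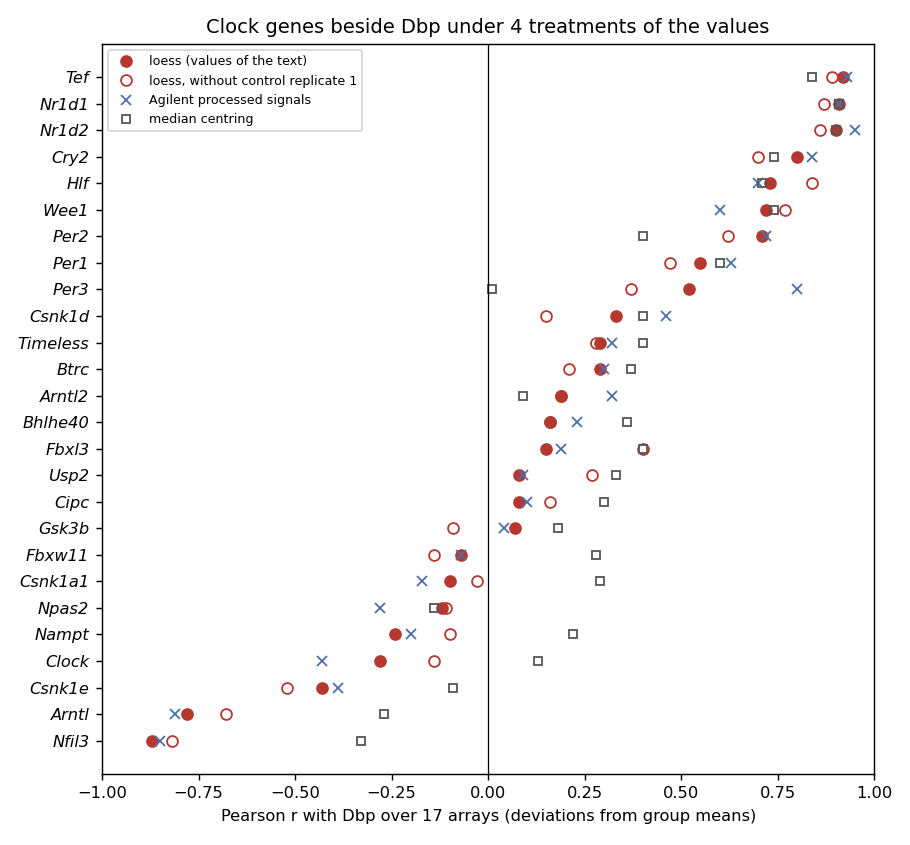
Pearson's r with Dbp (horizontal axis) of the other clock genes and their partners (rows), from deviations from group means, under 4 treatments of the values, with Per2 and Per3 near background on most arrays; all use 17 arrays except the open circles, which leave out control replicate 1. Tef, Nr1d1 and Nr1d2 lie at 0.84 or above under all 4, while Arntl and Nfil3, at -0.78 and -0.87 with loess, lie at -0.27 and -0.33 with median centring. The Cy5 channel alone is not drawn, and there Nr1d2 was at 0.79, Arntl at -0.77 and Nfil3 at -0.89.

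Of the wider clock pathway, a single gene, Bhlhe40, passed the test, on the line of dose. With all 17 arrays and no slide term, none of the measured genes was called at a single dose by limma in the positive arm (4 of 4 measured), the negative arm (7 of 10), the D-box factors Dbp, Tef, Hlf and Nfil3 (4 of 4), the kinases and ubiquitin ligases that act on PER and CRY (7 of 8) or the output genes Wee1, Nampt and Usp2 (3 of 3). Cry1, Ciart, Bhlhe41 and Fbxl21 were too dim to test. At an unadjusted p under 0.05, limma gave 0 in all 5 lists at 25 mg/kg, where 3.26% of all genes passed. At 50 mg/kg it gave 1 each in the negative arm, the D-box factors and the kinases and ligases, against 6.8% of all genes, and at 75 mg/kg 1 in the negative arm and 2 among the kinases and ligases, against 10.1%. On the line of dose 1 of the 7 measured genes of the negative arm was called, Bhlhe40, and 0 in the other lists, against 1.35% of all genes.

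Bhlhe40 encodes DEC1, a repressor that competes with ARNTL and CLOCK at E-boxes and also responds to other signals. Its log2 ratio was -1.46, -1.54, -1.30, -1.24 and -1.57 in control replicates 1 to 5. It was -1.54, -1.62, -0.93 and -1.04 at 25 mg/kg, -0.99, -1.19, -1.03 and -1.07 at 50 mg/kg, and -0.90, -0.66, -1.03 and -0.86 at 75 mg/kg. All 4 animals at 50 mg/kg and all 4 at 75 mg/kg were above every control animal; 2.21% and 3.3% of all genes separated at these doses in either direction. It rose with dose, by 0.19 ± 0.04 (SE) per 25 mg/kg, with a limma adjusted p of 0.0214, and its difference at 75 mg/kg was 0.56 ± 0.14 (SE; limma adjusted p = 0.0596). With slide as a block that difference was 0.53 and passed, with a limma adjusted p of 0.0388. It was 0.56 and also passed without replicate 7 or 8 at 25 mg/kg, with limma adjusted p of 0.0371 and 0.0352, while under the other settings and without any other array limma's adjusted p lay between 0.0534 and 0.23. Within slides the difference at 75 mg/kg was 0.60, 0.43 and 0.71. The slope was 0.17 with slide as a block, with a limma adjusted p of 0.016. It was 0.17 without replicate 18 at 75 mg/kg and 0.19 without replicate 20, with limma adjusted p of 0.0821 and 0.0524, and 0.26 under median centring, with 0.112. Its deviations correlated with those of Dbp at r = 0.16.

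Cell-type markers and glucocorticoid targets were set beside the clock genes array by array, a choice made after the values were seen. Of 20 relations between Arntl or Dbp and a list mean or the share of probes above background, none passed by permutation, and the lowest adjusted p was 0.643. The strongest were Dbp with the 6 enteric nerve and glia markers, at r = 0.56 (rho = 0.56), and Dbp with the 7 glucocorticoid targets, at r = 0.53 (rho = 0.52), both 0.43 without the 2 farthest arrays. A list mean can hide single markers. Of the 4 fibroblast markers, Pdgfra was at r = 0.78 with Dbp, Col1a1 at 0.42, Col1a2 at 0.08 and Dcn at 0.06, with no test. Pdgfra was at 0.74 without control replicate 1 and at 0.68 under median centring. The nerve and glia list averaged 0.92 to 1.54 at 25 mg/kg, 0.93 to 1.15 at 50 mg/kg, 0.67 to 1.23 at 75 mg/kg and 0.90 to 1.41 in control animals. The squamous list gave r = -0.35 with Dbp (rho = -0.43) and 0.24 with Arntl (rho = 0.31). The part of cell mixture, of stress at sampling and of the sampling hour in the spread of the clock genes was not tested beyond these values.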

How the data were processed

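The authors deposited a scanner table for each array, with intensity of spots and background in Cy5 and Cy3 (Feature Extraction 10.7.3.1, from the file headers), and a series table of log2 values, which tracked the loess ratios computed with no background correction (r of 0.998 to 0.999 per array; column medians of -0.04 to -0.02; its normalization is not given in the sources used here). The mean signal was not in the tables used here, so the median signal was used in place of it. Background was corrected with normexp (offset 50), loess was fitted within arrays, control spots having weight 0, and outlier spots were left out. Probes flagged well above background by the scanner in Cy5 on 4 or more arrays were kept (27601), with the brightest probe per gene. Symbols came from the RefSeq transcript through the GRCm38.p6 gene table: 26413 probes had 1 symbol and 29268 had none.

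Differences were tested with limma 3.58.1 in R 4.3.3 (two-sided, Benjamini-Hochberg over 21405 genes, threshold 0.05), with all 17 arrays and 4 group means in 1 fit, and again with the slope on dose. The fit was tested on simulated data. Correlations used deviations from group means, permutation of arrays within groups with 100000 draws, two-sided, and adjustment over 15 pairs; 1e-05 is the smallest p these draws can give. The design text calls the animals of a group biological replicates. Their number limits the precision. Alternatives were the background correction, processed signals, median centring, Cy5 alone, the series table, no filter, slide as a block, the compared groups alone, the mean of probes, and leaving out each array. Named were the 10 members, the listed pathway genes and markers, and the 5 genes most and 5 least like Arntl and Dbp. Members and lists were chosen with earlier results of these data known. A listed pathway gene, with its list, is not reported here.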

Additional observations from a re-analysis of the deposited data

Results flagged for a closer look

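Of the 40 combinations of a clock gene and a group, 1 had an animal far from the others. Arntl in replicate 9 at 25 mg/kg was at a log2 ratio of -0.50, with the nearest of the other 3 animals at 0.01 and the farthest at 0.12. The gap was 0.833 of the range of the group, above Dixon's critical value for 4 samples. Chance alone gives such a value in about 1 of 20 groups. The same animal had the highest Dbp, Nr1d1 and Nr1d2 of all arrays.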

How the results depend on the processing

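No clock gene was called at any dose or on the line of dose under any of the 9 other settings (8 for the line) or without any 1 of the 17 arrays, and the lowest adjusted p of limma was 0.247. Per2 is an exception: without replicate 5, 9, 15 or 20 it was well above background on too few arrays and was not tested. Under median centring, which moved the median of all genes by 0.15, 0.09 and 0.20 at the 3 doses, Clock turned sign, to 0.16, 0.12 and 0.02 with a slope of 0.01. The other values that turned lay within 0.09 of 0 with loess and all arrays. Cry2 at 50 mg/kg was at 0.00 without background correction and -0.02 with slide as a block, Per1 at 25 mg/kg was at -0.01 with the processed signals and with the series table, and Clock at 50 mg/kg was at 0.09 with the processed signals. Without 1 array, Clock ran from -0.19 to 0.04 at 25 mg/kg and from -0.14 to 0.05 at 50 mg/kg, Cry2 from -0.03 to 0.19 at 25 mg/kg and -0.12 to 0.08 at 50 mg/kg, Per1 from -0.21 to 0.20 at 25 mg/kg, Per2 from -0.03 to 0.09 at 75 mg/kg and its slope from 0.00 to 0.04, and control replicate 1 alone turned 7 of 36 values. Of the 15 pairs, 4 of them with Per2 or Per3, 11 passed by Pearson's r with loess and all arrays, 8 of these without Per2 or Per3. Under median centring 4 of the 15 passed. Without control replicate 1 it was 3, and without replicate 9 at 25 mg/kg also 3, and these 2 settings were chosen after seeing the data. Under median centring r was 0.05 for Arntl with Per1, 0.29 for Arntl with Cry2 and 0.13 for Dbp with Clock; the cause was not tested. No paired analysis was possible because the groups share no replicate numbers. Dim signal limits Per2, Per3 and Cry1.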
